A study of Homo sapiens with 36 samples.

Results

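Chromosomes 4, 13 and 18 are the least gene-dense autosomes of the human genome, and the distribution of TET1 along them was examined in HEK293T, a line derived from human embryonic kidney. The members are the deposited TET1 peaks on these 3 chromosomes in hg19, the human build named by the submitters, leaving out peaks within 1 Mb of the centromere gap and of the short arm of chromosome 13. Peaks that share 1 interval but report several summits were joined, so that each interval was counted once. That left 5485 intervals of 60933 in all 6 lists. siNC gave 2561 of its 28072 intervals and siCHD5 gave 2913 of its 32208. The short lists gave 11 in all: siCHD3 1 of 104, siCHD4 2 of 77, siMBD2 4 of 284 and siMBD3 4 of 188. Near the centromeres 23 siNC and 25 siCHD5 intervals on these chromosomes were left out.

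The study mapped TET1 by chromatin immunoprecipitation sequencing in HEK293T cultures that each received 1 of 6 small interfering RNAs (siRNAs). siNC served as the control here, since the remaining siRNAs carry gene names: siCHD3, siCHD4 and siCHD5 for 3 remodelling ATPases, and siMBD2 and siMBD3 for 2 methyl-CpG-binding domain proteins. The 36 libraries comprised 3 pull-down and 3 input replicates per siRNA, all in 1 cell line. Each siRNA had 1 peak list, with the 3 replicates pooled, so no spread between replicates could be computed and no difference between siRNAs was tested. Intervals given in parentheses are exact 95% intervals that cover counting error only, and peaks are not replicates of a condition. How far each siRNA lowered its target, and the read totals of the libraries, were not analysed here.

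TET1 is a dioxygenase that oxidises 5-methylcytosine as a step towards demethylation, and its CXXC domain binds CpG-rich DNA, which is concentrated at promoters. CHD3, CHD4 and CHD5 are alternative ATPases of the NuRD complex, which couples nucleosome remodelling with histone deacetylation, and MBD2 and MBD3 are alternative subunits of it. Gene-poor chromosomes hold long stretches of late-replicating chromatin with few CpG islands, and chromosome 18 is the textbook case of a territory at the nuclear periphery. The comparison asks how TET1 sites are spaced where promoters are scarce.

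The label held for protein-coding genes. Chromosome 13 carried 2.93 coding genes per Mb, chromosome 18 carried 3.46 and chromosome 4 carried 4.03, the 3 lowest values of the 22 autosomes. The other 19 autosomes ranged from 4.89 on chromosome 8 to 24.5 on chromosome 19. Gene counts came from RefSeq on a later assembly and served only as chromosome totals. They were divided by the full hg19 chromosome length, whereas interval densities below use arm length.

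TET1 intervals were sparse on all 3 chromosomes, and chromosome 18 was the sparsest autosome in both long lists. In siNC, chromosome 18 held 454 intervals, or 6.21 per Mb of arm (5.65 to 6.81). Chromosome 4 held 1391, or 7.47 per Mb (7.08 to 7.88), and chromosome 13 held 716, or 7.52 per Mb (6.98 to 8.10). The interval of chromosome 18 lay below those of the other two, while chromosomes 4 and 13 overlapped each other and also chromosome 9, the next in order at 7.53 per Mb. Together the 3 chromosomes had 7.23 intervals per Mb (6.95 to 7.51) against 10.4 on the other autosomes, which reached 19.2 on chromosome 19. They made up 13.3% of autosomal arm length and held 9.63% (9.28 to 9.99) of the siNC arm intervals.

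The same 3 chromosomes were the lowest in siCHD5. Chromosome 18 had 7.51 intervals per Mb (6.90 to 8.17), chromosome 13 had 8.33 (7.76 to 8.93) and chromosome 4 had 8.44 (8.03 to 8.87), and the other autosomes began at 9.09 on chromosome 21. The siCHD5 list was longer than siNC on each of the 3 chromosomes, as it was over the other autosomes, at 12.0 against 10.4 per Mb. The 3 chromosomes held 9.55% (9.22 to 9.88) of its arm intervals, a share whose interval overlaps that of siNC.

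Set against genes rather than length, the order was turned around. Chromosome 13 had 2.12 siNC intervals per coding gene, the highest of 22 autosomes, chromosome 4 had 1.81 (place 3) and chromosome 18 had 1.68 (place 5). The 3 together had 1.86 per coding gene against 1.35 on the other autosomes, and in siCHD5 2.11 against 1.56. Over the 22 autosomes, interval density went with coding genes per Mb, with Pearson's r = 0.83 and Spearman's rho = 0.86 in siNC. This is a description over 22 chromosomes that share 1 list, with intervals taken per Mb of arm and genes per Mb of full chromosome. The plot of density by chromosome shows both readings.

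**Figure D1:**
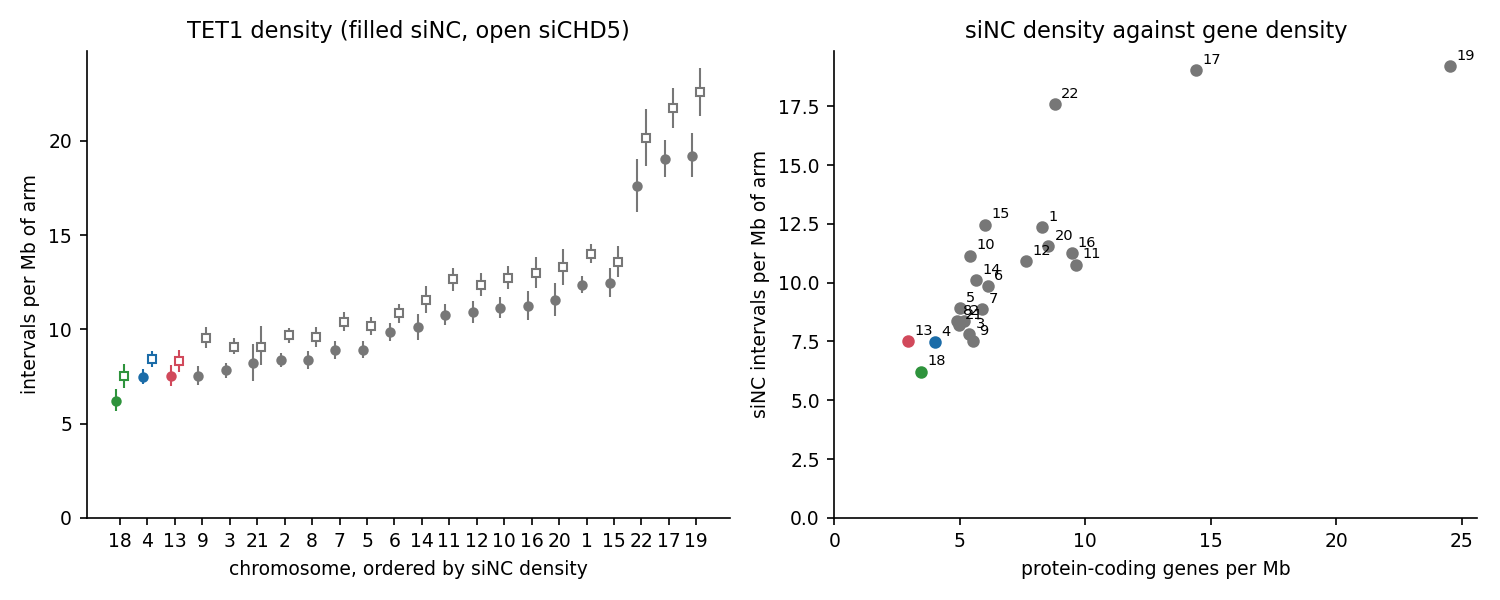
Left: TET1 intervals per Mb of chromosome arm for each of the 22 autosomes (filled circles siNC, open squares siCHD5; bars are exact Poisson 95% intervals), ordered by siNC density, with chromosomes 4 (blue), 13 (red) and 18 (green) coloured. Right: siNC intervals per Mb of arm against protein-coding genes per Mb of full chromosome length. The 3 gene-poor chromosomes sit at the lower left, at 2.93 to 4.03 genes and 6.21 to 7.52 intervals per Mb.

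Consecutive intervals stood further apart over most of the range of distances, though not at its top, where the longest siNC distance was 2.76 Mb against 3.996 Mb elsewhere. In siNC the median distance to the next interval was 71.1 kb on chromosome 4, 68.9 kb on chromosome 13 and 80.1 kb on chromosome 18, the 3 longest of the 22 autosomes. Over the 3 it was 72.6 kb, with quartiles of 25 and 165 kb, against 45.8 kb, with quartiles of 15.7 and 110 kb, on the other autosomes. The 90th percentile was 322 kb against 225 kb. In siCHD5 the medians were 60.4, 62.1 and 70.8 kb, against 39.97 kb on the other autosomes. The curves of chromosomes 4 and 13 ran close together in both lists, and that of chromosome 18 lay to their right at short distances.

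**Figure D2:**
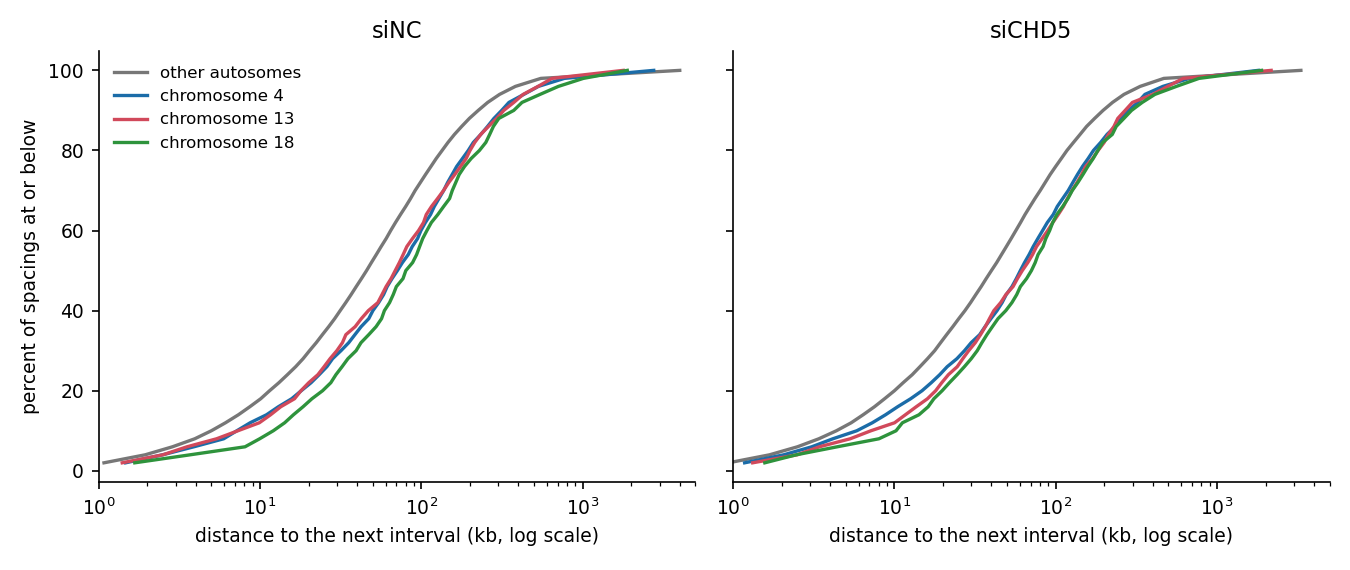
Cumulative share of distances between consecutive intervals (x axis in kb, log scale; y axis in percent of distances) for chromosomes 4, 13 and 18 and for the other autosomes, in siNC (left) and siCHD5 (right). All 3 coloured curves lie to the right of the grey one over most of their length; the siNC medians are 71.1, 68.9 and 80.1 kb against 45.8 kb.

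Tight groups of sites were fewer than over the other autosomes pooled, though some other sparse chromosomes had shares like those of chromosomes 4 and 13. Of the siNC intervals, 22.3% (20.7 to 23.9) had a neighbour within 10 kb, against 31.8% (31.2 to 32.4) on the other autosomes. Chromosome 18, with 15.9% (12.6 to 19.6), had the lowest share of the 22, and its interval did not meet those of chromosome 4, at 24.1% (21.9 to 26.4), and chromosome 13, at 22.8% (19.7 to 26.0). In siCHD5 the shares were 24.9% against 35.1%. The median distance in siNC was 0.532, 0.520 and 0.499 of the mean distance on chromosomes 4, 13 and 18, within the range of 0.458 to 0.552 of the single other autosomes.

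Counts in windows of 1 Mb were also lower at their peak. The fullest of 349 siNC windows on the 3 chromosomes held 23 intervals, against 51 in the fullest of 2268 windows elsewhere, and the variance of the counts was 2.90 times their mean against 5.26 times over the other autosomes pooled. Some other sparse chromosomes had like values, 2.91 on chromosome 21, 2.998 on chromosome 8 and 3.13 on chromosome 3, while chromosome 9 had 4.72. The low variance is thus not particular to these 3. Windows with no siNC interval were about as frequent, at 11 of 349 (3.15%) against 62 of 2268 (2.73%). The fullest windows were 8 to 9 Mb on chromosome 4, with 23 siNC and 27 siCHD5 intervals, 45 to 46 Mb on chromosome 13, with 20 and 18, and 29 to 30 Mb on chromosome 18, with 17 and 15. Both lists placed their intervals in the same windows: siNC and siCHD5 counts had Pearson's r = 0.93 over the 349 windows, and 6 windows were empty in both.

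Chromosome ends differed among the arms. The last 5 Mb of 4p held 63 siNC intervals, or 12.6 per Mb, against 7.31 over the rest of that arm, and 4q ended with 8.20 against 7.31. On 13q the values were 8.60 and 7.46. Chromosome 18 had no such excess in siNC: its p arm ended with 5.60 per Mb against 5.81, and its q arm with 4.80 against 6.47. On the other autosomes the ends held 11.6 per Mb on p arms and 11.7 on q arms, against 10.2 and 10.4 over the rest. siCHD5 repeated the excess on 4p, with 14.8 against 7.92 per Mb, and its lack on 18q, with 7.20 against 7.61.

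A desert is defined here as a stretch of at least 1 Mb with no interval between 2 consecutive intervals of 1 list on the same arm. siNC had 27 deserts on the 3 chromosomes: 10 on chromosome 4, 7 on chromosome 13 and 10 on chromosome 18. They spanned 36.8 Mb, or 10.4% of the arms, against 7.73% on the other autosomes. Most of that excess sat on chromosome 18, where deserts took 18.0% of the arms, the highest share of the 22 autosomes. Chromosome 13 had 9.44% (the seventh) and chromosome 4 had 7.89% (the eleventh), inside the range of 0 to 17.7% elsewhere, whose highest value was on chromosome 9. Without chromosome 18 the share was 8.42%. In siCHD5 there were 23 deserts over 8.94% of the arms, against 6.18% elsewhere, and chromosome 18 was again the highest, at 16.8%.

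The deserts were many rather than long. Their median length in siNC was 1.28 Mb, and a single one passed 2 Mb: chr4:58309255-61066850 on 4q, of 2.76 Mb, which was the ninth longest over all autosomes, where the longest was 3.996 Mb, on chromosome 1. At a minimum of 2 Mb the 3 chromosomes had 0.778% of their arms in deserts against 2.21% elsewhere, so the order reverses for long deserts. The next on chromosome 4 were chr4:61731276-63510221, of 1.78 Mb, on the same arm, and chr4:33162170-34722254 on 4p, of 1.56 Mb. On chromosome 13 the longest were chr13:55819746-57604874, of 1.79 Mb, chr13:103841377-105224025, of 1.38 Mb, and chr13:83054902-84354434, of 1.30 Mb. On chromosome 18 all 3 longest lay on the q arm: chr18:68449424-70339679, of 1.89 Mb, chr18:36125317-37739400, of 1.61 Mb, and chr18:64772295-66290647, of 1.52 Mb.

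Some deserts were free of TET1 intervals in both lists and others were not. The counts below are given without a share for deserts elsewhere, and are not read as particular to these chromosomes. In length, deserts free of both lists took 5.87% of the arms here, against 4.67% on the other autosomes. Of the 27 siNC deserts, 8 held no siCHD5 interval at all, among them the longest of chromosome 13 and the longest of chromosome 18, and 16 kept a stretch of at least 1 Mb free of both. The other 19 held 38 siCHD5 intervals, up to 4 in 1 desert. The 2.76 Mb desert of 4q held 1, of 5.36-fold enrichment, which left 1.80 Mb free of both. Fold enrichment is the authors' ratio of pull-down to control background at the summit, and it belongs to its own list. The 38 had a median of 5.11-fold, from 2.55 to 8.94. By definition none of them overlaps siNC, so they are set beside the siCHD5 intervals without a siNC partner. Those numbered 786 on these chromosomes, with a median of 4.45-fold. In the other direction 10 of the 23 siCHD5 deserts held no siNC interval and the rest held 18. Their median was 5.05-fold, beside 4.29-fold for the 434 siNC intervals without a siCHD5 partner.

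The longest siCHD5 desert of the 3 chromosomes was chr13:83054859-85222242, of 2.17 Mb. It starts at the same site as the siNC desert of 1.30 Mb at 83.05 Mb and runs past the siNC interval that ends that desert, chr13:84354435-84354647, of 3.81-fold. That interval was 1 of 2 siNC intervals inside the siCHD5 desert, and the stronger of them stood at 3.84-fold.

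**Figure D3:**
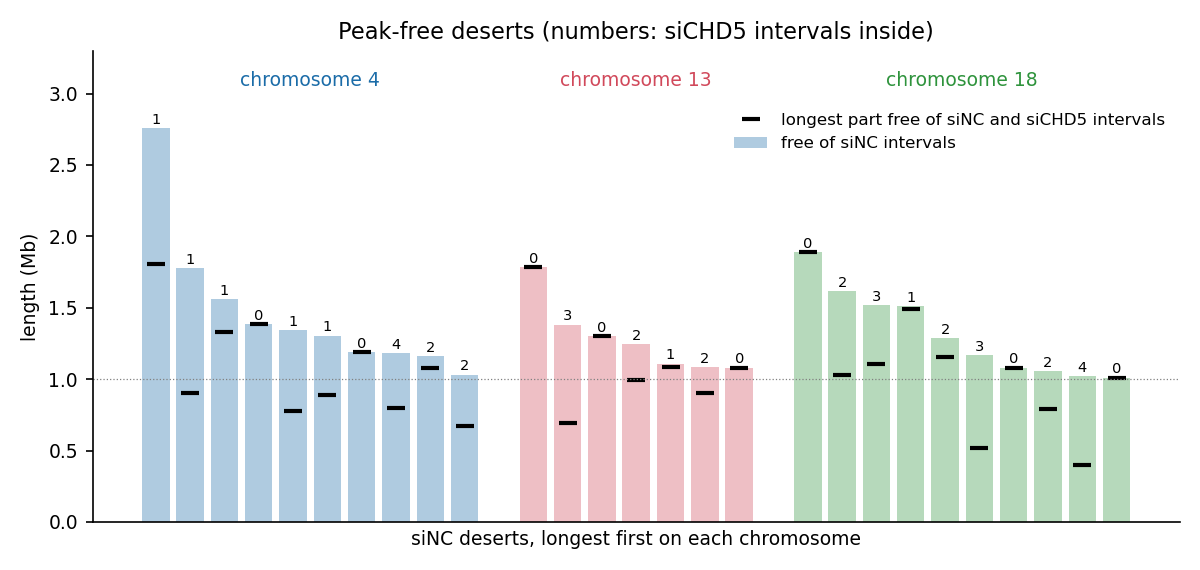
Length in Mb of each of the 27 siNC deserts (bars, longest first on chromosomes 4, 13 and 18) and of the longest part of each that was free of siNC and siCHD5 intervals (black dashes); the number above a bar is the number of siCHD5 intervals inside. For 8 deserts the dash is at the top of the bar, since no siCHD5 interval lay inside, and the dotted line marks the minimum of 1 Mb.

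Isolated sites, with no interval of the same list within 500 kb on either side, were rare. Over the 3 chromosomes together they were more frequent than over the other autosomes together. siNC had 23, or 0.898% of its intervals (0.570 to 1.34), against 86, or 0.358% (0.286 to 0.442), on the other autosomes. Chromosome 18 had 7 (1.54%, 0.622 to 3.15), the highest share of the 22, chromosome 13 had 6 (0.838%) and chromosome 4 had 10 (0.719%). The single other autosomes ranged from 0 to 0.768%, on chromosome 9. Chromosome 4 lay inside that range and chromosome 13 just above it. In siCHD5 there were 17 (0.584%, 0.340 to 0.933) against 79 (0.286%, 0.227 to 0.357). There chromosome 18 was again highest, at 1.09%. Chromosomes 4, at 0.446%, and 13, at 0.504%, lay below chromosome 21, at 1.01%.

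Isolated sites in siNC had a median fold close to that of the rest, with fewer reads. Their median was 6.23-fold against 6.16 for the intervals that had a neighbour, while their median pileup was 25 reads against 33 and their median −log10 q was 11.7 against 15.2. By chromosome the siNC fold was 5.93 against 6.17 on chromosome 4, 6.30 against 5.91 on chromosome 13 and 7.15 against 6.53 on chromosome 18. In siCHD5 the isolated sites had the lower fold, 5.96 against 6.36, and 5.39 against 6.82 on chromosome 18. The order of the 2 classes therefore changed with the list and the chromosome. Isolated siNC sites were narrower, with a median of 249 bp against 288 bp, and none was wider than 500 bp. siCHD5 overlapped 19 of the 23 (82.6%, 61.2 to 95.05), beside 83.1% of those with a neighbour, and all 7 isolated sites of chromosome 18 were overlapped. On the other autosomes siCHD5 overlapped 67 of 86 (77.9%, 67.7 to 86.1).

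The strongest isolated site lay on 13q, at chr13:89719110-89719440, with 13.1-fold enrichment in siNC and 14.8-fold in siCHD5, 629 kb from its nearest neighbour. Its summit carried 142 pull-down reads over a control background of 9.90 reads. The next on that chromosome, chr13:105224026-105224366, closes the second longest desert of chromosome 13 and stood at 8.81-fold in siNC and 6.15-fold in siCHD5. The third, chr13:55819536-55819745, opens the longest desert of that chromosome, at 6.59-fold and 5.96-fold. All 3 were thus present in both lists, and the last 2 mark the edges of deserts.

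On chromosome 18 the strongest isolated sites were chr18:73190990-73191288, at 8.42-fold in siNC and 7.28-fold in siCHD5, chr18:75461242-75461480, at 7.72-fold and 5.78-fold, and chr18:64771997-64772294, at 7.23-fold and 6.38-fold. On chromosome 4 they were chr4:102090469-102090725, at 6.84-fold in siNC and 8.93-fold in siCHD5, chr4:61066851-61067121, at 6.66-fold and 11.1-fold, and chr4:97273475-97273712, at 6.24-fold and 5.11-fold. The site at 61.07 Mb closes the 2.76 Mb desert of 4q. The most remote siNC site of the 3 chromosomes was chr18:14178768-14178980 on 18p, 1019 kb from its nearest siNC neighbour. It stood at 5.72-fold in siNC and 5.52-fold in siCHD5. The siNC desert that it closes held 4 siCHD5 intervals, and its longest part free of both lists was 0.398 Mb. The 4 isolated siNC sites without a siCHD5 interval were 3 on chromosome 4 and 1 on chromosome 13, and they ranged from 3.81-fold to 6.005-fold.

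The relation of a site's neighbourhood to its strength was set out by distance to the nearest interval, with no test. On the other autosomes the median siNC fold was 7.13 for intervals with a neighbour within 10 kb, 6.86 at 10 to 100 kb, 6.32 at 100 to 500 kb and 5.997 beyond 500 kb. The share overlapped by siCHD5 went from 87.1% through 85.6% and 81.2% to 77.9%. On chromosomes 4, 13 and 18 the same 4 classes had medians of 6.12, 6.17, 6.05 and 6.23-fold, and shares of 82.1%, 83.3%, 83.4% and 82.6%. The pooled siNC values were thus level over the 4 classes, but those of chromosome 18 were not: from crowded to lone sites its medians were 5.93, 6.58, 6.51 and 7.15-fold and its shares 77.8%, 86.5%, 82.3% and 100%, the last over 7 sites. In siCHD5 the 3 chromosomes had medians of 6.22, 6.47, 6.31 and 5.96-fold, and siNC overlapped 72.8%, 73.6%, 70.5% and 82.4%, the last over 17 sites. On the other autosomes the siCHD5 shares were 76.0%, 74.5%, 69.2% and 63.3%.

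Intervals were slightly narrow. The median siNC width was 288 bp (quartiles 245 and 340) against 300 bp (252 and 359) on the other autosomes. Chromosome 18, at 277 bp, was the narrowest of the 22, and chromosomes 13 and 4 had 289 and 291 bp, within the range of 282.5 to 329 bp elsewhere. Intervals over 500 bp made up 2.89% (2.28 to 3.61) of the 3 chromosomes, or 74 intervals, against 3.77% (3.53 to 4.02), and 1.54% (7 intervals) of chromosome 18. In siCHD5 the medians were 286 against 301 bp.

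Width went with fold, and intervals of like fold were of like width. In the 4 quartiles of siNC fold, set over all autosomal arms, the median widths on the 3 chromosomes were 249, 270, 306 and 353 bp, and elsewhere 250.5, 271, 309 and 360 bp. The widest siNC interval was chr4:184183001-184184009 on 4q, of 1009 bp, with 2 summits, at 8.74-fold in siNC and 9.96-fold in siCHD5. The widest on chromosome 13, chr13:68310687-68311531, had 3 summits over 845 bp, at 5.91-fold and 6.73-fold. The widest on chromosome 18, chr18:32870082-32870854, was 773 bp wide and weak, at 3.304-fold and 3.56-fold. All 3 wide sites were in both lists.

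Fold enrichment was low on chromosomes 13 and 4. The siNC medians were 5.92-fold on chromosome 13, the lowest of the 22 autosomes, 6.17-fold on chromosome 4, the second lowest, and 6.56-fold on chromosome 18, the fifth lowest. The other autosomes ranged from 6.36 on chromosome 6 to 7.85 on chromosome 19, with 6.86 over all of them. In siCHD5 the medians were 6.21, 6.30 and 6.81-fold, against 7.10 over the other autosomes. Of the siNC intervals on the 3 chromosomes, 29.6% fell in the lowest fold quartile of all autosomal arms and 16.0% in the highest, against 24.6% and 25.9% elsewhere.

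The control background moved with these values. It was recovered, with the pull-down pileup, from the deposited fold and −log10 p-value of every interval of both lists on these chromosomes. In siNC its median at summits was 4.63 reads on chromosome 4 and 4.41 on chromosome 13, places 21 and 20 in rising order over the 22 autosomes, and 3.297 on chromosome 18, against 3.70 elsewhere. The median pileup was 33 reads on the 3 chromosomes and 33 elsewhere, and 29 on chromosome 18, the lowest of the 22. So chromosomes 4 and 13 had as many pull-down reads at summits as other autosomes over more control reads, and chromosome 18 had fewer of the former. Its part in the low fold of chromosomes 4 and 13 was not tested.

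The high background lay in blocks. In bins of 10 Mb with at least 20 intervals in each list, the 10 highest median control backgrounds in siNC among 238 autosomal bins were all on these 3 chromosomes, 5 on chromosome 4, 4 on chromosome 13 and 1 on chromosome 18. In siCHD5 the 3 chromosomes held 9 of the 10 highest, and the other was on chromosome 5. On chromosome 13 the bins from 60 to 100 Mb had siNC medians of 11.6, 8.82, 7.92 and 6.87 reads, while the other 5 bins had 3.17 to 3.82. On chromosome 18 the bins from 20 to 40 Mb had 5.81 and 7.92 reads, and the other 4 had 2.63 to 2.64. On chromosome 4 the 6 bins from 130 to 190 Mb had 5.81 to 6.82, and the counted bins before 130 Mb had 3.17 to 4.75. Stretches beside a centromere and at chromosome ends were not counted as bins, whatever their number of intervals. These were 40 to 60 Mb on chromosome 4, 10 to 20 Mb on chromosome 18, and beyond 190, 110 and 70 Mb on chromosomes 4, 13 and 18.

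Fold was low inside the block of chromosome 13, and the pull-down was high there. The bins from 60 to 90 Mb had siNC medians of 5.18, 5.40 and 5.17-fold, among the 5 lowest of the 238 bins, with median pileups of 55, 52 and 43 reads against 28 to 31 in the bins before 60 Mb. The block of chromosome 18 had 5.90 and 6.54-fold, and pileups of 44.5 and 52 against 24.5 to 26 in its other bins. Over the 32 bins of the 3 chromosomes the control background of siNC and siCHD5 went together, with Spearman's rho = 0.97. siNC fold went against siNC background, with rho = -0.70, as it did over the 206 bins of the other autosomes, with rho = -0.54. Background is the denominator of fold and was solved from it, so a negative relation is partly built in. The correlations are descriptions over bins that share 1 list or 1 set of inputs.

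**Figure D4:**
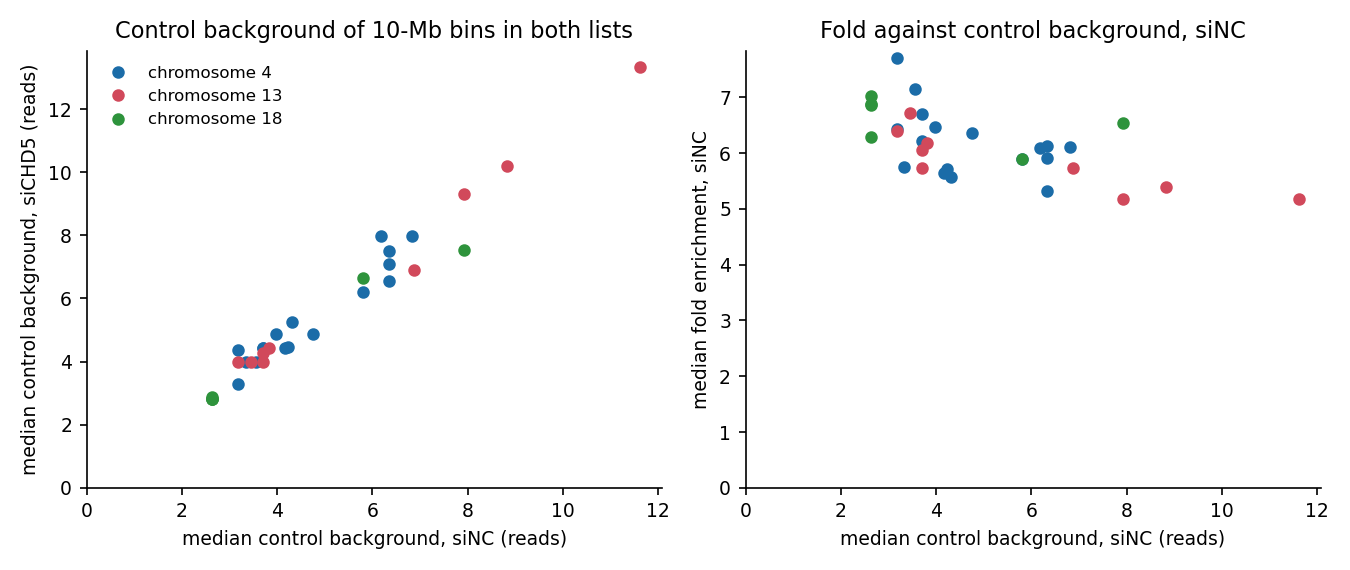
Each point is 1 of 32 bins of 10 Mb on chromosomes 4 (blue), 13 (red) and 18 (green). Left: median control background at summits, in reads, in siNC (x) and siCHD5 (y). Right: median siNC fold enrichment (y) against median siNC control background (x). The 4 red points furthest right, at 6.87 to 11.6 reads in siNC, are the bins from 60 to 100 Mb of chromosome 13.

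Site numbers went with the block on chromosome 18 and showed no common order with background over the 3 chromosomes. The block bins of chromosome 18 were the fullest of its counted bins, with 88 and 75 siNC intervals against 38 to 62 in the other 4. They held 94 and 88 siCHD5 intervals against 51 to 75. The sparsest counted bins of each chromosome were 60 to 70 Mb on chromosome 4, with 26 siNC and 35 siCHD5 intervals at a siNC background of 3.17 reads, 80 to 90 Mb on chromosome 13, with 47 and 47 at 7.92 reads, and 60 to 70 Mb on chromosome 18, with 38 and 51 at 2.64 reads. The densest counted bins were 0 to 10 Mb on chromosome 4, with 132 and 154 at 3.17 reads, 20 to 30 Mb on chromosome 13, with 114 and 127 at 3.44 reads, and 20 to 30 Mb on chromosome 18, with 88 and 94 at 5.81 reads. Over all 3 chromosomes sparse and dense bins were found at both low and high background, and Spearman's rho between siNC background and siNC count was 0.17 over the 32 bins.

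Most siNC sites recurred in siCHD5. An overlap of at least 1 bp was found for 2127 of 2561 siNC intervals, or 83.1% (81.5 to 84.5), where 85.3% of all siNC intervals of the genome had one, and 85.6% (85.2 to 86.1) of those on the other autosomes. The share was 82.0% (79.9 to 84.0) on chromosome 4, the lowest of the 22 autosomes, 84.1% (81.2 to 86.7) on chromosome 13 and 84.6% (80.9 to 87.8) on chromosome 18. These 3 intervals overlap, and chromosome 21, the next lowest after chromosome 4, stood at 82.2%. The shortfall is near the background and is not read as a property of these chromosomes.

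In the reverse direction 2127 of 2913 siCHD5 intervals, or 73.0% (71.4 to 74.6), overlapped siNC, where 74.4% of all siCHD5 intervals did and 74.5% (74.0 to 75.1) of those on the other autosomes. Chromosome 18 had 69.9% (65.9 to 73.8), the second lowest of the 22, chromosome 4 had 72.6% (70.4 to 74.8) and chromosome 13 had 75.9% (72.8 to 78.9). Lists of unequal length give unequal shares, so each is given.

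At like fold the shares were level or turned. From the lowest to the highest quartile of siNC fold, siCHD5 overlapped 61.0%, 86.4%, 95.4% and 99.0% of the siNC intervals on the 3 chromosomes, and 58.8%, 87.7%, 95.7% and 99.4% elsewhere. With the quartile mix of the other autosomes the 3 chromosomes would have had 85.7%, beside 85.6% there. From siCHD5, the lowest quartile had 44.1% (40.8 to 47.4) against 37.4% (36.3 to 38.6), the second 76.8% (73.7 to 79.6) against 71.8% (70.8 to 72.9), and the upper 2 had 89.2% and 97.1% against 89.5% and 97.9%. In the lowest quartile, siCHD5 sites on these chromosomes were thus more often present in siNC than sites elsewhere. Chromosome 13 was highest, at 50.8% (44.5 to 57.0), while chromosome 18 stood at 37.6% (29.6 to 46.1). Low fold need not mean few reads: at 60 to 70 Mb on chromosome 13, siCHD5 had a median of 5.31-fold at 63 reads. With −log10 q of 5 or more required instead, the 3 chromosomes stayed below the other autosomes. The siNC share was 87.2% against 90.3%, and the siCHD5 share 76.7% against 79.1%. The plot of sharing by fold quartile shows that the share rose most steeply at the low-fold end.

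**Figure D5:**
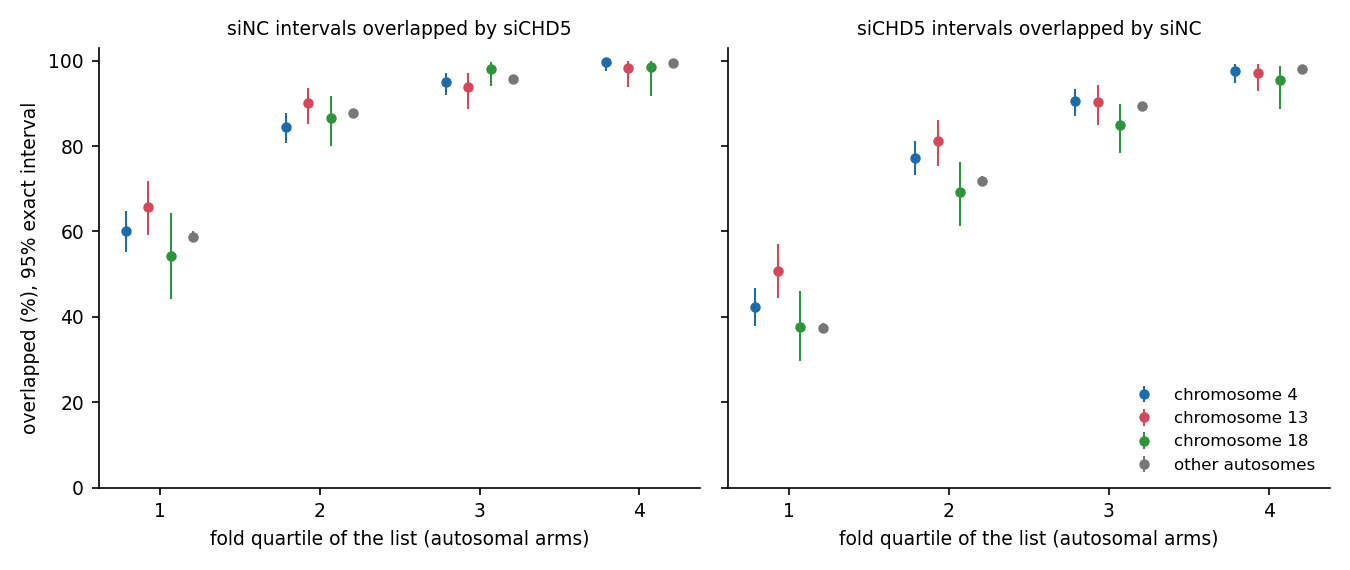
Share of intervals overlapped by the other list (y, percent, with exact 95% intervals) by fold quartile of the list, set over all autosomal arms (x, quartile 1 lowest), for chromosomes 4, 13 and 18 and the other autosomes. Left: siNC intervals overlapped by siCHD5, from 58.8% to 99.4% on the other autosomes. Right: siCHD5 intervals overlapped by siNC, where chromosome 13 stands at 50.8% in the lowest quartile against 37.4% on the other autosomes.

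Shared sites coincided closely. The siNC and siCHD5 summits of the 2127 shared sites were a median of 10 bp apart, and 96.5% lay within 50 bp, as did 96.2% elsewhere. Their median fold was 6.58 in siNC and 7.10 in siCHD5, beside 7.42 and 8.15 on the other autosomes. The 434 siNC intervals without a siCHD5 partner were weak and narrow, with medians of 4.29-fold and 249 bp, and so were the 786 of siCHD5 without a siNC partner, at 4.45-fold and 250 bp. Intervals without a partner on the other autosomes were alike, at 4.12-fold and 250 bp in siNC and 4.49-fold and 250 bp in siCHD5. Of the 434, 15 had a siCHD5 interval within 1 kb, and their median distance to one was 30.6 kb. On the other autosomes 209 of 3454 did, and the median distance was 21.4 kb.

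The strongest siNC sites were in both lists. On chromosome 4 they were chr4:171180707-171181170, at 25.7-fold in siNC and 15.3-fold in siCHD5, chr4:103352539-103352938, at 20.9-fold and 12.1-fold, and chr4:8626430-8627018, at 20.4-fold and 20.5-fold, the last of which lies in the fullest window of that chromosome. On chromosome 13 chr13:100089098-100089515 stood at 16.6-fold and 21.3-fold, chr13:114216711-114217149 at 16.6-fold and 6.96-fold, and chr13:27504409-27504814 at 16.0-fold and 12.4-fold. On chromosome 18 chr18:22067679-22068013 stood at 17.7-fold and 14.4-fold, chr18:19535965-19536397 at 15.9-fold and 9.86-fold, and chr18:864829-865136 at 15.1-fold and 16.0-fold. Fold of 1 site in 2 lists is set side by side here and was not compared, since each list has its own libraries and control.

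Sites of 1 list alone were seldom strong. The highest siNC intervals without a siCHD5 partner were chr4:54357190-54357509, at 9.15-fold, chr13:99100622-99100942, at 13.2-fold, and chr18:43554095-43554370, at 9.34-fold. The 2 next on each chromosome were chr4:53777907-53778200 (8.84-fold), chr4:47928624-47928928 (8.58-fold), chr13:23518706-23519029 (9.15-fold), chr13:31586794-31587071 (8.58-fold), chr18:70429824-70430045 (8.58-fold) and chr18:47085791-47086008 (7.72-fold). Of these 9, 7 had a control background of 2.497 reads, the lowest of the siNC list on these chromosomes. The chromosome 13 site at 99.10 Mb was the one siNC interval among them above 10-fold.

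The highest siCHD5 intervals without a siNC partner were chr4:40738992-40739296, at 11.04-fold, chr13:21286764-21287043, at 11.3-fold, and chr18:3594352-3594636, at 12.6-fold. They were followed by chr4:154265510-154265892 (10.7-fold), chr4:7721337-7721644 (10.5-fold), chr13:27913510-27913825 (10.8-fold), chr13:50571424-50571909 (10.2-fold), chr18:34923342-34923626 (11.6-fold) and chr18:10560433-10560740 (9.99-fold). Their pileups ran from 37 to 68 reads over control backgrounds of 2.80 to 5.43 reads. The site on 18p stood out by having an siMBD2 interval as well.

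The 4 short lists had few intervals on any autosomal arm, and so few on these chromosomes. siMBD2 had 4 of its 215 autosomal arm intervals on them (1.86%, 0.509 to 4.69) and siMBD3 had 4 of 122 (3.28%, 0.900 to 8.18), beside 9.63% of siNC. In these lists chromosomes 8 and 11 hold a large share of the intervals. Without those chromosomes, a choice made after the data were seen, the shares were 4 of 114 (3.51%, 0.964 to 8.74) and 4 of 50 (8.00%, 2.22 to 19.2), beside 10.7% of siNC and 14.8% of arm length. siCHD3 had 1 of 16 (6.25%, 0.158 to 30.2) and siCHD4 had 2 of 12 (16.7%, 2.09 to 48.4), too few to place against those shares.

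Of these 11 intervals, 3 overlapped one another at a site on 4q, and 1 overlapped siNC. By list, an overlap with siNC was found for 0 of 1 siCHD3 (37.5% of that list genome-wide), 0 of 2 siCHD4 (48.1%), 0 of 4 siMBD2 (20.4%) and 1 of 4 siMBD3 intervals (20.2%). With siCHD5 the counts were 1 of 1 (49.0%), 1 of 2 (58.4%), 1 of 4 (26.4%) and 1 of 4 (29.3%). The one over siNC was chr4:174089386-174089603, at 3.68-fold in siMBD3 and 2.94-fold in siNC. The siCHD4 interval chr13:25861912-25862117, at 5.92-fold, lay 93 bp from a siNC interval.

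A site on 4q recurred across the knockdown lists. It was chr4:68265532-68265845 in siCHD3, at 1.54-fold, and it was also present in siCHD4 at 1.55-fold, in siMBD3 at 1.66-fold and in siCHD5 at 1.38-fold, and absent from siNC and siMBD2. Its control background was 449.8 reads in siCHD3, 544.5 in siCHD4, 415.3 in siMBD3 and 542.0 in siCHD5, against medians of 4.23 in siNC and 4.87 in siCHD5 over all members, and its pileups ran from 689 to 842 reads. So it is a site of very high control signal with a small ratio, and the siCHD5 interval there had the lowest fold of all siCHD5 members.

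On 18p intervals of 3 lists lay close together, where siNC had none. There siCHD5 had chr18:3594352-3594636, at 12.6-fold, siMBD2 had chr18:3594554-3594800, at 4.37-fold, and chr18:3595064-3595345, at 4.85-fold, and siMBD3 had chr18:3593148-3593362, at 5.92-fold. Of these, the first siMBD2 interval alone overlapped that of siCHD5, and the second siMBD2 interval lay 0.427 kb and the siMBD3 interval 0.989 kb from it. The siMBD2 and siMBD3 intervals lay 7.03 to 8.95 kb from the nearest siNC interval, chr18:3585829-3586114, which stood at 8.58-fold and had a siCHD5 partner at 7.10-fold. Pileups at the siMBD2 and siMBD3 summits were 13 to 18 reads, against 47 in siCHD5. The remaining 3 intervals were single: chr18:9648682-9648875 (4.60-fold) and chr4:167501368-167501564 (2.78-fold) in siMBD2, and chr18:2571222-2571414 (3.99-fold) in siMBD3.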

How the data were processed

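TET1 and input libraries of HEK293T cells were sequenced in paired-end mode, per the labels' protocols. The submitters' processing notes name Bowtie2 2.3.4, SAMtools 1.9, bedtools 2.25.0, MACS2 2.1.2, deepTools 3.5.0, FastQC 0.11.7 and hg19; their roles and settings, duplicate removal and any filter on regions are not given in the sources used here. All 6 lists were taken as called on pooled replicates, since their names carry replicates 1 to 3 together. The deposited fold is the authors' ratio of pull-down to control at the summit, the deposited −log10 p-values and q-values refer to the summit, and the deposited score (unused) restates the q-value.

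Chromosome lengths and gaps of hg19 were entered by hand. Arms leave out the centromere gap and 1 Mb on either side. Pileup and control were solved from fold, with a pseudocount of 1, and −log10 p, within a tolerance of 0.02. Shares carry Clopper-Pearson and counts Poisson 95% intervals. The lowest recovered control, a relative measure of depth, was 2.497 reads in siNC and 2.80 in siCHD5 on these chromosomes; pooling and unknown read totals limit the precision. Coding genes per chromosome came from RefSeq on GRCh38.p14.

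Regions were named by a rule: on each chromosome the 3 siNC intervals of highest fold, the 3 widest, the 3 strongest isolated ones, the 3 longest deserts, the 3 strongest of siNC or siCHD5 alone, and every interval of a short list. The isolated sites beyond these, the bins, windows and chromosome ends were chosen after values were seen. The members and lists were chosen with earlier results of these data known. With no annotation or sequence of hg19 used here, regions carry positions and no gene names or sequences. The overlap, spacing and desert counts were tested on simulated data and returned what was planted. Python 3.11.15, numpy 2.4.6, pandas 2.3.3 and scipy 1.17.1 were used.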

Additional observations from a re-analysis of the deposited data

How the results depend on the processing

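Over 6 results and 47 alternatives, 32 values stayed within the range set for the reported one and 15 moved beyond it. The range was the counting interval for density and shares, a 95% interval of the median for width and a factor of 1.5 for the desert share. The 3 chromosomes kept their side of the other autosomes in 46 of these 47. The exception was the desert share at a minimum of 2 Mb, 0.778% against 2.21%; counted free of siNC and siCHD5 together it was 5.87% against 4.67%. Keeping intervals of fold 4 or more gave a density of 6.14 per Mb, a siNC to siCHD5 share of 85.4%, a reverse share of 76.3% and a width of 294 bp. Keeping a −log10 q of 5 or more gave 6.37 per Mb, 87.2%, 76.7% and 292 bp. The shares of the other autosomes were 88.4% and 78.5% at the fold cut and 90.3% and 79.1% at the q cut. The 3 chromosomes thus lay further below them than without a cut. Demanding a 50% overlap gave 81.3%, and limiting siCHD5 to as many summits as siNC gave 79.4%. With the fold mix of the other autosomes, added after the data were seen, the shares were 85.7% and 77.1%, against 85.6% and 74.5% elsewhere. The siNC share thus became level with the other autosomes, and the siCHD5 share turned from below them to above them. The isolated share was 4.45% at 250 kb against 1.97% elsewhere, and 0.390% against 0.166% with neighbours of either list counted. At 1 Mb it was 0.0390% against 0.0374%, which is level, though it counts above as the same side. Without chromosome 18 the desert share was 8.42%, against 7.73% elsewhere. The cause of these changes was not tested.

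No paired analysis was possible because each siRNA has 1 list pooled over its replicates. For the same reason no replicate could be left out, and spread between cultures is unknown. The control background at a site limits which weak sites can be called, and its blocks on chromosomes 4, 13 and 18 were not corrected for.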

Other observations

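The blocks of high control background were also followed in bins of 2 Mb with at least 5 intervals in each list. Their sharpest edge was the proximal one on chromosome 13. Smaller steps between bins were seen at the distal edge on that chromosome and on chromosome 18. On chromosome 13 the siNC median was 3.76 reads at 60 to 62 Mb and 17.2 reads at 62 to 64 Mb, and siCHD5 had 4.43 and 19.8 reads there. The values then declined unevenly along the arm, through 11.3 reads at 70 to 72 Mb and 8.45 at 80 to 82 Mb to 7.51 at 94 to 96 Mb, and were back at 4.52 at 96 to 98 Mb and 3.23 at 98 to 100 Mb. siCHD5 followed with 11.1, 9.75, 8.42, 3.99 and 4.28 reads. The same positions were thus high in 2 lists with separate input libraries.

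On chromosome 18 the siNC median was 4.03 reads at 18 to 20 Mb, beside the centromere, 5.81 at 20 to 22 Mb and 4.09 at 24 to 26 Mb. It was 8.47 at 28 to 30 Mb, 9.24 at 30 to 32 Mb and 8.72 at 32 to 34 Mb. From there it fell to 4.92 at 34 to 36 Mb and 3.84 at 38 to 40 Mb. It ran from 2.497 to 3.43 in every counted bin from 40 Mb to the end of the q arm. On 18p it ran from 2.497 to 3.70. On chromosome 4 the change was less abrupt, from 3.98 reads at 130 to 132 Mb to 6.66 at 138 to 140 Mb, with 7.92 at 156 to 158 Mb and 4.32 in the last counted bin, 190 to 192 Mb. These bins were drawn after the 10-Mb values were seen, and what sets them apart was not tested.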
